A study of Mus musculus with 4 samples.

Results

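Of the interleukin-1 (IL-1) and interleukin-18 (IL-18) axis, 5 genes were followed by symbol in the deposited table of 4121 genes: the cytokine genes Il1a, Il1b and Il18, the IL-18 binding protein gene Il18bp and the receptor gene Il18r1. Inflamed distal colon came from 8-week-old mice of the C57BL/6 strain, and RNA of 2 samples labelled WT and 2 labelled Elf4-KO was sequenced. Both groups had colitis from 3% dextran sulfate sodium (DSS), which damages the epithelial lining, and were sampled at day 6. Elf4 is a transcription factor of the Ets family. How the knockout was made, whether it was limited to some cell types, and whether the 2 samples of a genotype were separate animals are not given in the sources used here. Colon without DSS was not analysed here.

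The table gives 1 FPKM value per gene and genotype (fragments scaled by transcript length and sequencing depth). No spread between samples, SD or n can therefore be given for any value, the depth per sample is unknown, and no test was run. It holds the genes called by the authors, which by its values differed by 2-fold or more with q no higher than 0.05. Rose and fell below mean that call. The 5 genes were chosen from this contrast, so their values describe it and support nothing further. Genes that it does not hold were not analysed here, so the share of all measured genes that was called is not known. Elf4 itself (X:48411046-48463132) fell from 16.4 FPKM in WT to 3.51 FPKM in Elf4-KO.

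IL-1α and IL-1β bind the receptor Il1r1, which pairs with the accessory chain Il1rap and signals through MyD88 to NF-kB. IL-1β and IL-18 are made as inactive precursors that caspase-1, activated in inflammasomes, cuts into the active cytokines, and gasdermin D forms the pore through which they leave the cell. IL-18 acts through Il18r1 and Il18rap on T and NK cells, where with IL-12 it drives interferon gamma, while the secreted binding protein Il18bp neutralizes it. In the colon the epithelium is a main source of IL-18, and monocytes, macrophages and neutrophils are main sources of IL-1β.

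The stretches upstream of the RefSeq transcription start are shown for the pair of genes that rose and for the gene that fell most, because Ets factors bind DNA at a GGAA core. Each is 250 bases from the RefSeq promoter table (GRCm38.p6), 5′ to 3′ on the strand of the gene, and ends just before the start. Capitals mark GGAA or its reverse complement TTCC, and TATAAA or its reverse complement TTTATA.
Il1a, chr2:129309973-129310222, minus strand: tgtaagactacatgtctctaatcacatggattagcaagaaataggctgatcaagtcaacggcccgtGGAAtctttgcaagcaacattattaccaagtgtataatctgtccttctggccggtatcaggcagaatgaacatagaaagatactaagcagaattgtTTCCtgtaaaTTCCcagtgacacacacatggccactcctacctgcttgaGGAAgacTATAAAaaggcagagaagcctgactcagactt
Il1b, chr2:129371140-129371389, minus strand: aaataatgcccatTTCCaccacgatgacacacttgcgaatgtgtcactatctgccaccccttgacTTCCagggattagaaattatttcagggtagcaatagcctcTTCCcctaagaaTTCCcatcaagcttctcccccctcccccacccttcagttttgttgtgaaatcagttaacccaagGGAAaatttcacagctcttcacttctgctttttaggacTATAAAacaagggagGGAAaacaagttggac
Il18, chr9:50554450-50554699, plus strand: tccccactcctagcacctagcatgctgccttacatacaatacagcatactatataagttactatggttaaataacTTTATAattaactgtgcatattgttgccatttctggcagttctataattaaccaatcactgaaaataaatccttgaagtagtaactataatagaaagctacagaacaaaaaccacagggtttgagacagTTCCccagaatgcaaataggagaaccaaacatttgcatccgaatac
None of these 3 windows overlaps an annotated exon. The Il1b window lies within the antisense gene Il1bos, and the Il18 window within Bco2. The windows of Il18bp and Il18r1 overlap annotated exons and are not printed.

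On both strands together, GGAA occurred 4 times upstream of Il1a, 6 times upstream of Il1b and 1 time upstream of Il18. It was present in 93.4% of 27018 such windows, taking 1 window per gene, with a median of 3 matches. The longer GGAAGT, which contains the core, was present in 5400 of these windows. It occurred upstream of Il1b on the antisense strand from -187 to -182, counted back from the start, and upstream of Il18bp on the sense strand from -45 to -40. It was also present in 2 of the 3 windows of Il18r1. These 2 windows overlap and hold the same single site, from -89 to -84 in 1 and from -158 to -153 in the other. Both genes that rose had TATAAA on the sense strand close to the start, from -32 to -27 in Il1a and from -31 to -26 in Il1b. Between -40 and -20, TATAAA on the sense strand was present in 2.13% of windows. Upstream of Il18, TATAAA was found only on the antisense strand, from -175 to -170. The motif TGANTCA, in which N is any base, is looser than the AP-1 site TGA(C/G)TCA. It occurred in Il1a, as TGACTCA, from -12 to -6 and in 6.87% of windows on either strand. These matches describe the letters and do not show binding.

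Of the 5 genes, 2 were higher and 3 lower in Elf4-KO, beside 48.0% higher and 52.0% lower over the 4121 listed genes. Among these 5, the IL-1 cytokine genes rose and the IL-18 genes fell. Il18rap, an IL-18 receptor gene outside the 5, rose. In both directions the list holds genes of high and of low level, as the plot of the 5 genes by genotype shows. At 4-fold or more, Il1a was higher, as were 12.9% of listed genes, and Il18 was lower, as were 24.5%. Log2 ratios below compare Elf4-KO with WT on the log2(FPKM + 1) scale, on which changes of low genes appear too small, while folds are plain FPKM ratios.

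**Figure D1:**
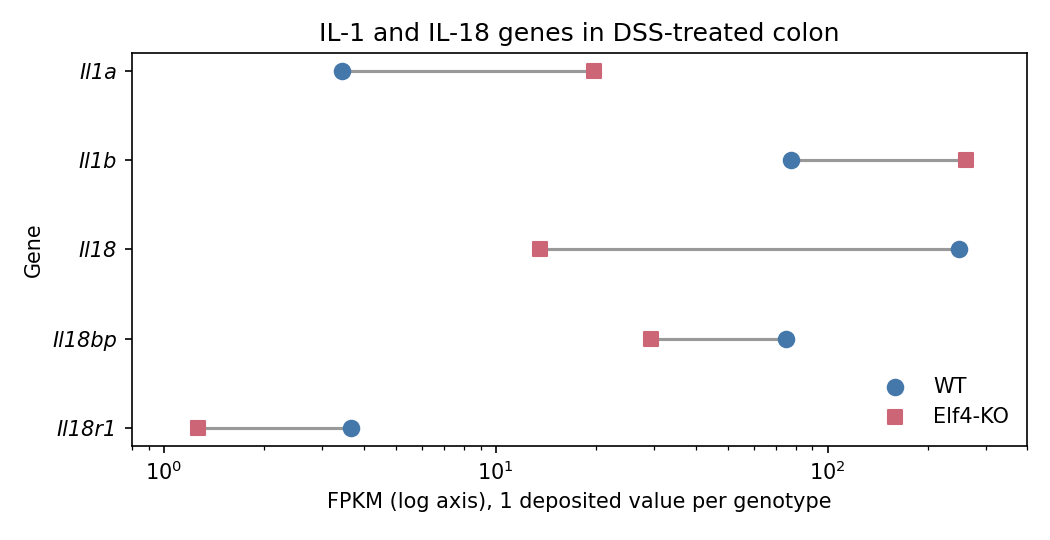
FPKM of the 5 genes in WT (circles) and Elf4-KO (squares) colon, on a log axis, with 1 deposited value per genotype and a line joining both. Il1a and Il1b lie further right in Elf4-KO, while Il18, Il18bp and Il18r1 lie further left, Il18 by 18.3-fold.

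Il1b (ENSMUSG00000027398, 2:129364570-129371139, minus strand) encodes IL-1β, the main secreted form of IL-1. Its level was 77.6 FPKM in WT and 262 FPKM in Elf4-KO. This was a 3.37-fold rise and a log2 ratio of 1.74. In the order of levels over the table, Il1b stood at place 564 of 4121 in WT and at place 132 in Elf4-KO. Among the 1980 genes that rose, its log2 ratio stood at place 404.

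Il1a (ENSMUSG00000027399, 2:129299610-129309972, minus strand) encodes IL-1α, which is active without cutting by caspase-1 and is released from damaged cells. It was low in WT, at 3.45 FPKM, and reached 19.8 FPKM in Elf4-KO. The 5.73-fold rise was larger than that of Il1b, with a log2 ratio of 2.22 at place 208 of 1980. Il1b stayed the more abundant of both per length, at 22.5 times the level of Il1a in WT and 13.2 times in Elf4-KO. Both genes lie on the same strand of chromosome 2, 54.6 kb apart.

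Il18 (ENSMUSG00000039217, 9:50554827-50581840, plus strand) had the highest level of the 5 genes in WT, 249 FPKM, and 13.6 FPKM in Elf4-KO. It fell 18.3-fold, leaving 5.46% of the WT value, with a log2 ratio of -4.10. This was place 41 of the 2141 genes that fell. In WT, Il18 stood at 3.22 times the FPKM of Il1b. In Elf4-KO, Il1b stood at 19.2 times the FPKM of Il18, so the order of these caspase-1 substrates was the reverse in the 2 genotypes.

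Il18bp (ENSMUSG00000070427, 7:102014885-102018690, minus strand), the secreted inhibitor of IL-18, fell from 74.8 to 29.3 FPKM, by 2.55-fold, with a log2 ratio of -1.32, at place 1301 of 2141, and q = 0.0204 in the authors' deposited table. The cytokine fell more than its inhibitor. The FPKM of Il18 was 3.34 times that of Il18bp in WT and 0.464 times in Elf4-KO. Il18r1 (ENSMUSG00000026070, 1:40465552-40500854, plus strand), the chain of the receptor that binds IL-18, was low in both genotypes. It fell from 3.67 to 1.27 FPKM, by 2.90-fold, with a log2 ratio of -1.04, at place 1767 of 2141, and q = 0.00335 in the authors' deposited table. In the authors' deposited table, q was 0.000372 for Il1a, Il1b and Il18, a minimum shared by 2233 genes.

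The locus that the table gives was wider than the annotated gene for 4 of the 5 genes. For Il18 it ran from 50528767 to 50581840 and also took in Bco2, Tex12 and Gm47077. For Il18bp it ran from 101934111 to 102018690 and took in Numa1, which overlaps the annotated Il18bp by 80 bases. It also took in the pseudogenes Gm45312, Gm8523 and Gm45313. The Il1b locus included the antisense gene Il1bos, with 1243 bases shared, and the Il1a locus the opposite-strand transcript Gm14023, with 8217 bases shared. The sources do not say whether counting used strand, so reads of a gene and of its opposite-strand neighbour cannot be told apart, and these 4 values are uncertain to that extent. Gm47077 lies on the strand of Il18, and these pseudogenes on that of Il18bp, so strand would not separate them. They do not overlap the annotated gene. None of the neighbours in these 4 loci was itself listed. Il18r1 had its annotated bounds. Overlap with neighbours was not looked up for genes outside the 5, so their values may carry the same uncertainty. Among these, the locus given for Cxcl10 was 5:92331827-92414628 and that for Aim2 was 1:173331886-173466040.

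**Figure D2:**
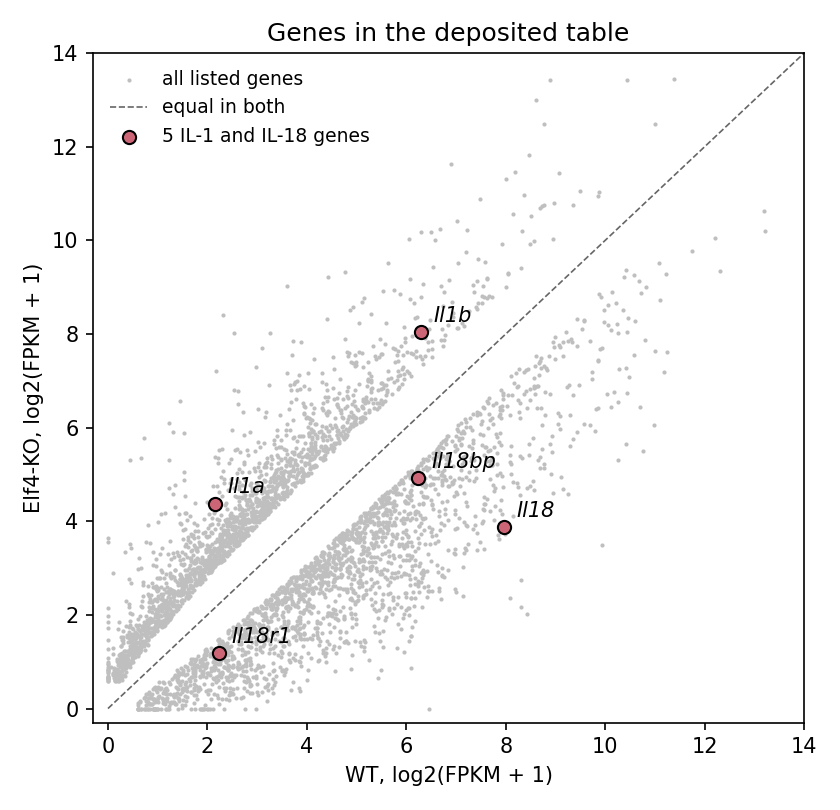
Each point is a gene of the deposited table, with log2(FPKM + 1) in WT on the x axis and in Elf4-KO on the y axis; the 5 IL-1 and IL-18 genes are labelled and the dashed line marks equal values. The empty band along the line is where differences under 2-fold would lie, and Il18 sits far below the line, at 249 FPKM in WT and 13.6 FPKM in Elf4-KO.

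The genes closest to each of the 5 in both values at once were found by the Euclidean distance in log2(FPKM + 1), a measure over only the 2 genotype values. For Il1b the nearest was Nfkbia, the NF-kB inhibitor gene, at 80.6 FPKM in WT and 253 FPKM in Elf4-KO (distance 0.074), followed by Sparcl1 (distance 0.15). For Il1a they were Apold1 (0.032) and F10, the coagulation factor X gene (0.035). For Il18 they were Slc6a14, an amino acid transporter gene of epithelium, with 245 FPKM in WT and 13.2 FPKM in Elf4-KO (distance 0.053), and Ppp1r14d (0.14). For Il18bp they were Stra13 (0.065) and Oxct1 (0.067), and for Il18r1 Fignl1 (0.0096) and Apol7e (0.06).

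Among the IL-1 family ligands and antagonists, 4 of 10 genes were listed. Besides Il1a, Il1b and Il18, this was Il36g, listed under its older symbol Il1f9, an epithelial and myeloid cytokine of the IL-36 branch. It rose from 1.25 to 6.37 FPKM. Of these 4 genes, 3 rose and Il18 fell, beside 48.0% higher and 52.0% lower over all listed genes. Il1rn, the IL-1 receptor antagonist gene, and Il33 were not listed, so the balance between IL-1 and its antagonist is not analysed here.

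Of 10 receptor, decoy and binding protein genes, 9 were listed, 6 higher and 3 lower. Over all listed genes, 48.0% were higher and 52.0% lower. The median log2 ratio of the 9 was 1.59, beside -0.76 over all listed genes. As every listed gene differs by 2-fold or more, the -0.76 is a median over called genes only, of which more fell than rose. Whether a tissue-wide shift has a part in it was not tested. Il1r1, the signalling receptor for IL-1, rose from 26.9 to 101.8 FPKM, and Il1rap, its accessory chain, from 7.79 to 21.5 FPKM. Il1r2, a decoy that binds IL-1 without signalling, rose 23.0-fold from 6.83 to 157 FPKM. The decoy stood at 0.254 times the FPKM of Il1r1 in WT and at 1.54 times in Elf4-KO. Il1rl1, the receptor for IL-33, rose from 19.9 to 121.7 FPKM, and Il1rl2, the receptor for IL-36, from 3.24 to 15.8 FPKM. Sigirr, an inhibitory receptor of the family, fell from 15.3 to 3.76 FPKM.

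The chains of the IL-18 receptor moved in opposite directions. Il18rap, the accessory chain that IL-18 signalling requires, rose 3.53-fold from 3.81 to 13.5 FPKM, while the binding chain Il18r1 fell. Their levels were nearly equal in WT, with Il18rap at 1.04 times Il18r1, and in Elf4-KO Il18rap stood at 10.6 times Il18r1.

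These receptor genes are neighbours. On chromosome 1, 6 of them lie within 478 kb (1:40074079-40551705), in the order Il1r2, Il1r1, Il1rl2, Il1rl1, Il18r1 and Il18rap. Of the 6, 5 rose and Il18r1 fell, beside 48.0% higher and 52.0% lower over all listed genes. They are part of the receptor genes counted above, so this is not a separate count. Il18r1 starts 136 bases past the annotated end of Il1rl1, which rose 6.11-fold, and Il18rap, which also rose, starts 49.8 kb further on. Of the genes outside this run, Map4k4, a kinase gene before Il1r2, rose from 20.7 to 79.6 FPKM. Beyond Il18rap, the sodium-proton exchanger gene Slc9a2 fell from 38.4 to 8.36 FPKM and Mfsd9 from 7.53 to 1.32 FPKM. These 3 were chosen for their position after their values were seen.

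**Figure D3:**
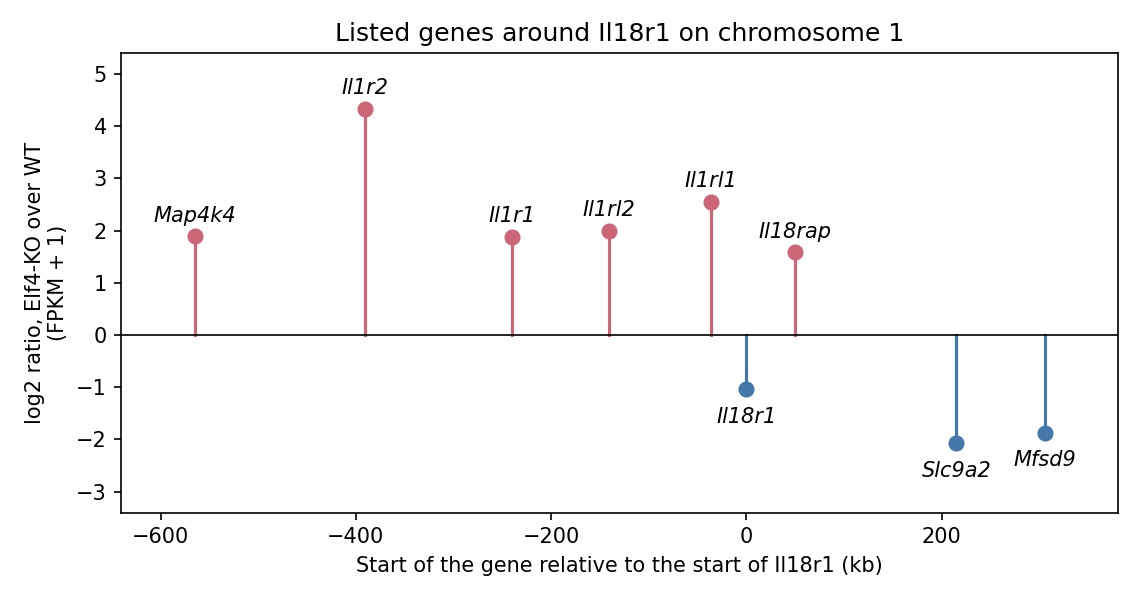
Log2 ratio of Elf4-KO over WT (FPKM + 1) for each listed gene around Il18r1, against the distance of its start from the start of Il18r1 in kb. The receptor genes from Il1r2 to Il18rap point up except Il18r1, at -1.04. Over all listed genes, 48.0% were higher and 52.0% lower.

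Genes that process and release IL-1β and IL-18 mostly fell: of 22, 15 were listed, 13 lower and 2 higher (median log2 ratio -2.15). Over all listed genes, 52.0% were lower. Casp1, which cuts both precursors, fell 6.98-fold from 125.5 FPKM in WT, and Pycard, the inflammasome adaptor gene, from 90.7 to 19.2 FPKM. Gsdmd, the gasdermin D gene, fell from 194 to 38.0 FPKM. The sensor genes Nlrp6 and Aim2 fell 35.2-fold and 5.50-fold. Naip1, Naip5 and Naip6, sensors of bacterial proteins, fell 11.9-fold, 5.50-fold and 9.51-fold, and as near-identical copies they may share reads. The exceptions, chosen after their values were seen, were Nlrp3, the sensor gene best known from myeloid cells, which rose from 2.17 to 9.31 FPKM, and Mefv, the pyrin gene, which rose from 3.98 to 8.00 FPKM. Il1b thus rose while Casp1 fell, and Il18 and Casp1 fell together.

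Of 31 MyD88 and NF-kB signalling genes, only 5 were listed and 5 rose (median log2 ratio 1.64). Of these, Nfkbia rose from 80.6 to 253 FPKM and Tnfaip3, another feedback inhibitor of NF-kB, from 30.3 to 74.4 FPKM. Irak3, which restrains signalling at the receptor, rose from 4.32 to 24.6 FPKM. Map3k8, a kinase gene, rose from 5.47 to 32.2 FPKM, and Fos, an AP-1 subunit gene, from 37.2 to 81.8 FPKM. The core transducers Myd88, Irak1, Irak4, Traf6 and Rela were not listed. Over all listed genes, 48.0% were higher.

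Of 26 IL-1 response genes, 20 were listed and 20 rose, beside 48.0% higher over all listed genes. The median log2 ratio of the 20 was 3.05, and their summed level was 1110.0 FPKM in WT and 12149 FPKM in Elf4-KO. The list was chosen with earlier results of these data known, so its shared direction is not independent support for an IL-1 response. Many of these 20 genes respond to other stimuli too, and neutrophils also express some. The fold was larger than that of Il1b for 18 of the 20 and larger than that of Il1a for 14. Ptgs2, encoding the inducible prostaglandin synthase, rose from 12.2 to 231 FPKM. Csf3, Cxcl2, Cxcl3 and Cxcl1, which raise and attract neutrophils, rose 54.5-fold, 46.9-fold, 41.7-fold and 15.2-fold. The acute-phase gene Saa3, the siderophore-binding gene Lcn2 and the collagenase gene Mmp13 rose 13.0-fold, 13.1-fold and 12.7-fold.

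Of 17 IL-18 and IL-12 response genes, 8 were listed, 6 lower and 2 higher (median log2 ratio -1.77). Over all listed genes, 52.0% were lower. The list also contains genes of IL-12 itself, of its receptor and of the transducer Stat4, of which only Il12a was listed. Ifng, the interferon gamma gene that IL-18 induces, had 4.51 FPKM in WT and 0.272 FPKM in Elf4-KO, and q for this fall was 0.0204 in the authors' deposited table. Cxcl9 and Cxcl10, chemokine genes downstream of interferon gamma, fell 16.7-fold and 3.73-fold. Tbx21, the T-bet gene, fell from 2.14 to 0.407 FPKM, and the granzyme gene Gzma from 55.3 to 12.3 FPKM. Irf1, a transcription factor gene of the interferon response, fell 3.24-fold. Il12a, a subunit of IL-12, rose from 0.531 to 2.76 FPKM. The other gene that rose, chosen after its values were seen, was Il2ra, from 1.39 to 3.90 FPKM. Il18bp, an interferon gamma target, fell by a smaller fold than all 6 genes of this list that fell.

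**Figure D4:**
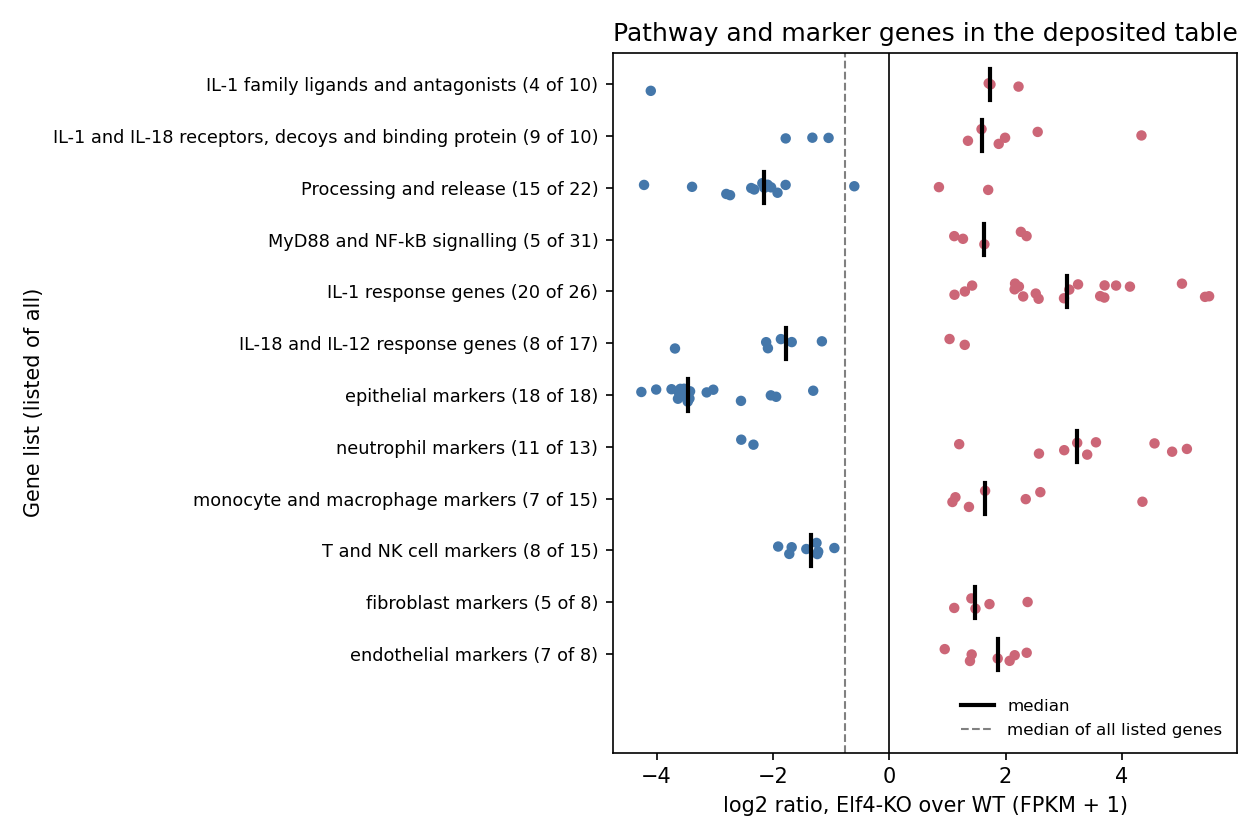
Log2 ratio of Elf4-KO over WT (FPKM + 1) of each listed gene, by gene list, with the number listed of all genes in the list; black bars are medians and the dashed line is the median of all listed genes, -0.76. IL-1 response genes all lie to the right of 0, with a median of 3.05, and epithelial markers all lie to the left, with a median of -3.46. The dashed line is not a level of no change.

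Marker genes of the cell types that make or receive these cytokines moved in the same tissue. These lists too were chosen with earlier results of these data known. Over all listed genes, 48.0% were higher and 52.0% lower, beside each marker count here and below. In bulk tissue, fewer cells of a type and less RNA per cell cannot be told apart. The table held 18 of 18 epithelial markers, none at 0, and 18 fell, by a median log2 ratio of -3.46. Their summed level was 13264 FPKM in WT and 1259 FPKM in Elf4-KO, which is 9.49% of WT, beside 5.46% for Il18. The fall of Il18 was larger, by fold, than that of 17 of the 18 markers, with Krt19 (1672 to 86.3 FPKM) as the exception and Krt8 (2335 to 144 FPKM) next to it. The part of the epithelial markers' fall in that of Il18 was not tested.

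For the genes that rose, 11 of 13 neutrophil markers were listed, 9 higher and 2 lower (median log2 ratio 3.23), with summed levels of 1205 and 4215 FPKM in WT and Elf4-KO. Without Ly6g, a choice made after seeing the data, the sums were 351 and 4070 FPKM. Mmp8 rose from 1.74 to 94.1 FPKM and Ngp from 0.357 to 38.5 FPKM. Ly6g fell from 854 to 145.7 FPKM and Ltf from 14.4 to 2.05 FPKM, both named because of their values. For monocytes and macrophages the table held 7 of 15 markers, and 7 rose, with summed levels of 174 and 645 FPKM. Marco, a scavenger receptor gene, rose from 1.89 to 58.0 FPKM and Itgam, an integrin gene of myeloid cells, from 14.1 to 90.5 FPKM. The defining genes Adgre1, Csf1r and Lyz2 were not listed. By fold, the rises of Il1a and Il1b were each smaller than those of 8 of the 9 neutrophil markers that rose. Of the 7 monocyte and macrophage markers, 2 rose by a larger fold than Il1a and 3 by a larger fold than Il1b. Fibroblast and endothelial markers rose as well, 5 of 8 and 7 of 8 being listed, with median log2 ratios of 1.48 and 1.86. Among them Dcn rose from 533 to 2778 FPKM, Pdgfrb from 9.38 to 33.3 FPKM, Selp from 10.95 to 60.5 FPKM and Emcn from 8.12 to 39.7 FPKM. The part of these markers in the rise of Il1a, Il1b and Il1r1 was not tested.

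The table held 8 of 15 T and NK cell markers, and 8 fell, by a median log2 ratio of -1.34, with summed levels of 104 FPKM in WT and 32.0 FPKM in Elf4-KO, or 30.8% of WT, beside 34.5% for Il18r1. By fold, Il18r1 fell more than 4 of the 8 and less than the other 4, while on the log2(FPKM + 1) scale it fell less than 7 of the 8. Cd3g, of the T cell receptor complex, had 22.1 FPKM in WT and 5.16 FPKM in Elf4-KO. Itgae, whose integrin holds T cells at the epithelium, had 5.74 and 1.05 FPKM. Klrb1c and Ncr1, which mark NK cells, were not listed. The part of these markers in the falls of Il18r1 and Ifng was not tested, and Il18rap rose in the same tissue.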

How the data were processed

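Expression was measured by RNA sequencing in 2 WT and 2 Elf4-KO samples, with Trizol extraction and a Vazyme mRNA library kit, per the labels' protocols. The submitters' processing notes list Bowtie 0.12.2, Cufflinks 2.2.1 and mm8 but no roles. The deposited table gives 1 FPKM value per gene and genotype, per the file headers, and the sources do not say how samples were combined. Columns with a p-value and a q-value hold the authors' own comparison, per the file headers. Of 4121 gene identifiers, 4116 were found in GENCODE M21 on GRCm38, of which 99.95% overlapped the annotated gene and 76.8% had the same end, so coordinates are taken as GRCm38 and are printed counting from 1.

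Log2 ratios used a pseudocount of 1. No test was run. The members and the 12 gene lists (193 genes) were chosen with earlier results of these data known, and 1 further gene is not reported here. Genes were matched by symbol, 1 through a RefSeq synonym. Named were the members, Elf4, up to 8 listed genes per pathway list with the largest change, 2 per marker list with at least 1 FPKM, and the 2 genes nearest to each member; exceptions are stated. RefSeq upstream windows matched 5 of 5 members. Functions were tested on simulated data. Other settings tried were q of at most 0.01, a minimum of 4-fold, of 1 FPKM or of 5 FPKM, pseudocounts of 0.1 and 0, and centring. Python 3.11.15, numpy 2.4.6, pandas 2.3.3 and matplotlib 3.10.9 were used.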

Additional observations from a re-analysis of the deposited data

How the results depend on the processing

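No paired analysis was possible because each genotype has only 1 deposited value, which also prevented leaving out each replicate. The weight of a single sample in any value, and the depth, are unknown. Shifts beyond 1.5 times counted as moved. Of 187 values under the alternatives, 167 stayed within this, 20 moved and 0 changed direction. Counts could not change direction, nor could the ratio of a gene under another pseudocount, so this 0 was largely fixed in advance. Centring on the median of all listed genes, itself at -0.76, gave log2 ratios of -0.56 for Il18bp and -0.29 for Il18r1. It gave medians of -1.39 for processing and release genes and -1.01 for IL-18 and IL-12 response genes. The -0.76 is a median over called genes only, of which more fell than rose, so centring cannot be taken to remove a tissue-wide shift. Keeping only differences of at least 4-fold left, by construction, 2 of the 5 genes (Il1a and Il18). It left 3 higher and 1 lower among the receptor, decoy and binding protein genes, 1 higher for processing and release, 2 higher for MyD88 and NF-kB signalling, and 1 higher and 4 lower for the IL-18 and IL-12 response. The higher genes of that last list numbered 1 with q of at most 0.01 and 0 with at least 5 FPKM. With q of at most 0.01, Il18bp dropped out and 4 of the 5 genes were left. The log2 ratio of Il18r1 was -1.46 and -1.54 with pseudocounts of 0.1 and 0. For T and NK cell markers, centring gave a median of -0.58 and the 4-fold limit left 2 lower. The same limit left 3 higher monocyte and macrophage markers (median 2.60), 1 fibroblast marker (2.38) and 3 endothelial markers, and centring gave 2.24 for fibroblast markers.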
